A study of Mus musculus with 12 samples.

Results

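The set described here is 10 genes that encode subunits of the transcription factor NF-kB, its IkB-type inhibitors and other proteins that it induces or that restrain its signalling: Nfkbia, Nfkbie, Nfkbiz, Bcl3, Nfkb2, Rel, Relb, Tnfaip3, Birc3 and Tnfaip2. They were chosen by symbol, with earlier results of these data known. Counts set beside the share of all genes therefore describe the set and are not an independent test of it. A probe set was taken as belonging to a gene where the platform annotation gave that symbol alone. All 10 were found, with 22 probe sets, of which 21 passed the filter on low levels, and they stand among 12921 genes tested. Each is described by the probe set with the highest mean over the arrays.

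The 12 Affymetrix arrays carry RNA from whole lungs of mice 8 to 12 weeks old, with 3 arrays in each of 4 groups. In the rhPBEF group, recombinant human PBEF (pre-B-cell colony-enhancing factor, an earlier name of the NAD-synthesising enzyme Nampt) was injected into the trachea. Each mouse received 20 µg, in a volume of 1.5 µl water for every gram it weighed. In the VALI group, mice underwent 4 hours of mechanical ventilation with breaths of 30 ml for each kg. The combined group, rhPBEF and VALI, received both, and control mice received PBS. No genotype or strain is named in the labels, nor the time from injection to tissue collection, nor whether the VALI mice were given a fluid. Nothing in the labels states that the replicates were separate animals, so the p-values reflect array-to-array spread, which may be technical.

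NF-kB is a family of dimers made from Rela, Rel, Relb and the processed products of Nfkb1 and Nfkb2. In resting cells IkB proteins such as that of Nfkbia hold the dimers in the cytoplasm. Signals from Toll-like and cytokine receptors activate an IkB kinase, the inhibitor is degraded and the dimers enter the nucleus. Many genes that they then switch on encode their own inhibitors, so transcripts such as Nfkbia and Tnfaip3 are widely read as a record of recent NF-kB activity in inflamed lung.

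The promoters of 8 of the 10 genes are in the RefSeq table for build GRCm38.p6, and 11 windows of 250 bases before a transcription start were searched on both strands for the NF-kB consensus of 10 bases. Nfkbia, Nfkbie, Nfkb2, Rel, Tnfaip2 and Tnfaip3 held a match, and the Bcl3 and Birc3 windows held none. A match is a description of letters, not a site of binding. A match was present in 7.25% of all 32851 RefSeq windows and in 8.23% of all 27025 genes. With a stricter form of the consensus, 5 of the 8 genes matched, against 4.46% of all genes and 3.9% of all windows. Nfkbiz and Relb were not searched. Shown in capitals below are the matches of the prototype feedback inhibitor, of a subunit gene with overlapping matches, of a subunit gene that passed no test in these arrays, and of the A20 gene, beside Bcl3, whose response was large and whose window has no match. Each sequence runs 5′ to 3′ along its gene and ends at the base before the transcription start. They lie at chr12:55492648-55492897 on the reverse strand for Nfkbia, chr19:46304487-46304736 on the forward strand for the most upstream start of Nfkb2, chr11:23770970-23771219 on the reverse strand for Rel, chr10:19015411-19015660 on the reverse strand for the more upstream start of Tnfaip3, and chr7:19822756-19823005 on the reverse strand for Bcl3.
Nfkbia: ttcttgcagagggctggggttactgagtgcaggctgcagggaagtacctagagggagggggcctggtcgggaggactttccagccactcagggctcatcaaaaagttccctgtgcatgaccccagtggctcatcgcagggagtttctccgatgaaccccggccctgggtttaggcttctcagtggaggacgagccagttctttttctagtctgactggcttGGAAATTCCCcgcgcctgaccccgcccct
Nfkb2: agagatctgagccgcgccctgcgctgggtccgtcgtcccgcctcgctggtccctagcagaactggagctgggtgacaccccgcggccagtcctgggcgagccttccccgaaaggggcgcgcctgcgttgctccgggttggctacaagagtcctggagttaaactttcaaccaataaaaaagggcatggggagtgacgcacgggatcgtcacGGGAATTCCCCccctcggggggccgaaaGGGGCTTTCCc
Rel: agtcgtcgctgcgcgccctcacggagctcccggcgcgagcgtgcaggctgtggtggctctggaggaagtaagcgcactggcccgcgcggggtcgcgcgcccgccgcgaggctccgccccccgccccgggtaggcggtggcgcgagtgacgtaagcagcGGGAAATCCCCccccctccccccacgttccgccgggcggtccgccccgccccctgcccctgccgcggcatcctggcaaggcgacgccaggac
Tnfaip3: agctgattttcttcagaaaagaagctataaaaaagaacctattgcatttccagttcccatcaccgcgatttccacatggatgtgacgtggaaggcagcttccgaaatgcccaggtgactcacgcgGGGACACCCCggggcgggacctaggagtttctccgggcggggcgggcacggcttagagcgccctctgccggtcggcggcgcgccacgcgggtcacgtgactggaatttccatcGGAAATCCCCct
Bcl3: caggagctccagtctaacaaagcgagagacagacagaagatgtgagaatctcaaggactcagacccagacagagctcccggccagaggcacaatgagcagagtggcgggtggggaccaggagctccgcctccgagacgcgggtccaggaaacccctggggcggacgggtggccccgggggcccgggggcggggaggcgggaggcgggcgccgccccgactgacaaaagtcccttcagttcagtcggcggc
The match in Nfkbia began 29 bases before the start. In Nfkb2 the longer run of capitals holds a match 39 bases before the start, read on both strands, and an overlapping match at 38. The run at the end holds 1. Rel had a match 92 bases before the start, read on both strands, and an overlapping match at 91. Tnfaip3 had a match 125 bases upstream, read on both strands, and another 12 bases upstream.

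Array medians lay between 7.0 and 7.07 on the log2 scale. The arrays carried the marks of lung, with group means of 14.87 to 14.93 for the surfactant gene Sftpc and 14.41 to 14.52 for the alveolar type I gene Ager. Of 18 neutrophil marker genes 14 were tested. Their mean stood above control by 1.84 to 2.17 in the rhPBEF arrays, 0.62 to 2.36 in the VALI arrays and 1.57 to 3.03 in the combined arrays, against -0.14 to 0.08 in the control arrays. Skeletal muscle genes were high in rhPBEF replicate 2 and VALI replicate 3, at 3.89 and 2.81 above control, against -0.35 to 0.18 in the other arrays. In whole lung, a change in the number of cells of a type and a change in RNA per cell cannot be told apart.

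In lungs given rhPBEF alone, 7 of the 10 genes rose and none fell: Tnfaip2, Tnfaip3, Bcl3, Nfkbiz, Nfkbie, Birc3 and Relb. Their increases over control ran from 2.93-fold for Relb to 6.90-fold for Tnfaip2 (limma adjusted p under 0.05). Nfkb2, Rel and Nfkbia were also higher in every rhPBEF array than in any control array, without passing. Over all genes tested 1.22% passed in this comparison and 0.936% passed as higher. The median difference of the 10 genes was 1.66 on the log2 scale and that of all genes -0.07, and 9.24% of all genes had rhPBEF arrays that did not overlap control upward, against all 10 here. The count of 7 moved with the arrays used. Without control replicate 1, 2 or 3 it was 4, 2 or 3, where 0.426%, 0.341% or 0.371% of all genes passed. Without rhPBEF replicate 1 or 2 it was 3, where 0.433% or 0.395% of all genes passed. It was 2 when the pair of arrays rich in skeletal muscle transcripts was dropped (chosen after seeing the data), where 0.534% of all genes passed. Tnfaip2 and Tnfaip3 passed whichever of the 12 arrays was left out.

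**Figure D1:**
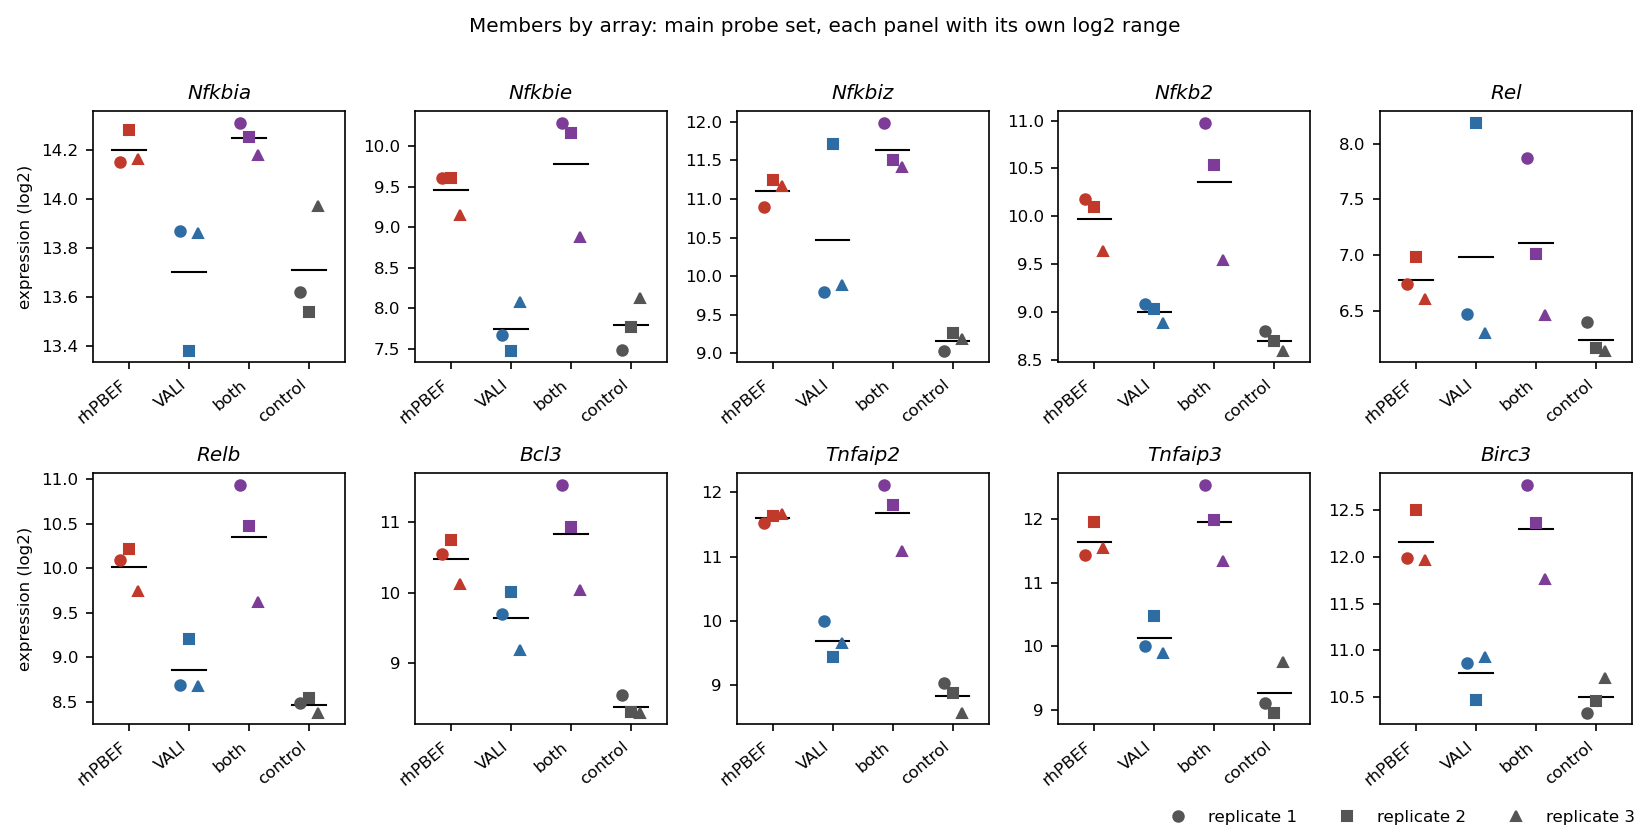
Expression (log2) of the main probe set of each of the 10 genes in every array, with rhPBEF, VALI, the combined treatment (both) and control from left to right; bars mark group means, symbols give the replicate number, and each panel has its own range. Every rhPBEF array and every combined array lies above all control arrays in all 10 panels, while VALI arrays overlap control in 4 of them.

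The classical IkB genes hold NF-kB outside the nucleus. Nfkbia encodes IkBα, the fast feedback inhibitor that strips NF-kB from DNA and returns it to the cytoplasm. Its values were 14.15, 14.28 and 14.16 in rhPBEF lungs, 13.87, 13.38 and 13.86 in VALI lungs, 14.31, 14.25 and 14.18 in lungs given both, and 13.62, 13.54 and 13.97 in control lungs. The rhPBEF and combined arrays all lay above control, and the VALI arrays overlapped it. The increase was small, at 0.48 ± 0.14 (SE) for rhPBEF (limma adjusted p = 0.129) and 0.53 ± 0.14 for the combined treatment, which passed (adjusted p = 0.0441) but did so in only 5 of the 12 fits that left out 1 array. This probe set reads near the top of the scale, whose highest value in the table was 15.02. The other 4 probe sets of Nfkbia differed by more, from 0.58 to 0.98 for rhPBEF and from 0.66 to 1.07 for the combined treatment against control.

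Nfkbie encodes IkBε, a slower feedback inhibitor of the same kind. It measured 9.61, 9.61 and 9.15 after rhPBEF, 7.67, 7.47 and 8.08 after VALI, 10.29, 10.16 and 8.88 after both, and 7.48, 7.76 and 8.12 in control arrays. VALI arrays sat among the control arrays, with a difference of -0.05 ± 0.33 (95% interval -0.78 to 0.68). The gene rose 3.18-fold with rhPBEF (adjusted p = 0.0397) and 3.97-fold with both (adjusted p = 0.00944). For rhPBEF against control the call held in 4 of the 12 fits that left out 1 array. Its other probe set gave 1.44 and 1.64 on the log2 scale for the same comparisons.

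The nuclear IkB proteins act on NF-kB already bound to DNA. Nfkbiz encodes IkBζ, which is needed for late inflammatory genes such as Il6. Its levels were 10.89, 11.25 and 11.17 with rhPBEF, 9.79, 11.71 and 9.89 with VALI, 11.99, 11.50 and 11.42 with both, and 9.03, 9.26 and 9.19 in control lungs. Each array of the 3 treated groups stood above control, and VALI replicate 2 was higher than any rhPBEF array. Nfkbiz rose 3.85-fold with rhPBEF (adjusted p = 0.0479) and 5.57-fold with both (adjusted p = 0.00879). With VALI alone the difference was 1.30 ± 0.40 (adjusted p = 0.198), and 0.68 without VALI replicate 2. The 2 other probe sets followed, at 1.62 and 1.25 for rhPBEF, 0.97 and 1.04 for VALI, and 2.14 and 1.53 for both. For rhPBEF the call held in 5 of the 12 fits that left out 1 array.

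Bcl3 encodes a partner of the p50 and p52 homodimers. The arrays read 10.55, 10.75 and 10.12 for rhPBEF, 9.70, 10.01 and 9.19 for VALI, 11.53, 10.93 and 10.03 for both, and 8.55, 8.30 and 8.29 for control. No treated array overlapped control. It rose 4.26-fold with rhPBEF (adjusted p = 0.0124) and 5.47-fold with both (adjusted p = 0.00406). The VALI difference of 1.26 ± 0.33, with a 95% interval of 0.53 to 1.98, did not pass over all genes (adjusted p = 0.155).

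Nfkb2, Relb and Rel encode subunits. Nfkb2 makes p100, which is both an inhibitor of Relb and the precursor of the p52 subunit. Its levels were 10.18, 10.10 and 9.64 in rhPBEF arrays, 9.08, 9.03 and 8.88 in VALI arrays, 10.98, 10.54 and 9.54 in combined arrays, and 8.80, 8.69 and 8.59 in control arrays. VALI arrays stood just above control and below all arrays given rhPBEF, and the combined arrays spread from below the rhPBEF arrays to above them. Nfkb2 rose 3.17-fold with both treatments (adjusted p = 0.0106), while rhPBEF alone gave 1.28 ± 0.29 (adjusted p = 0.0611). Its other probe set showed smaller differences, of 0.60 for both and 0.46 for rhPBEF.

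Relb, which pairs with p52 in the slower, non-canonical branch of the pathway, read 10.09, 10.22 and 9.74 with rhPBEF, 8.69, 9.20 and 8.68 with VALI, 10.94, 10.48 and 9.62 with both, and 8.48, 8.54 and 8.37 in control. VALI arrays lay just above the control arrays and below the rest. The gene rose 2.93-fold with rhPBEF (adjusted p = 0.0232) and 3.68-fold with both (adjusted p = 0.00577), and the VALI difference was 0.39 ± 0.28. Nfkb2 and Relb were the closest pair of the 10, with a Pearson r of 0.983 over the 12 arrays. This r is a description of arrays that share their treatment groups.

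Rel encodes c-Rel, a subunit best known in lymphocytes and myeloid cells. Its values were 6.74, 6.98 and 6.61 with rhPBEF, 6.47, 8.19 and 6.30 with VALI, 7.87, 7.01 and 6.46 with both, and 6.40, 6.17 and 6.14 in control. VALI replicate 2 was the highest array of all, while VALI replicate 3 lay within the control range. Rel passed in no comparison, with 0.54 ± 0.45 for rhPBEF, 0.75 ± 0.45 for VALI and 0.88 ± 0.45 for both. The VALI difference was 0.15 without VALI replicate 2, and the combined difference was 0.50 without combined replicate 1. Its control mean of 6.24 lies below 6.42, the level used as the filter, so a low level here may not be told from background.

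The remaining genes act further upstream or downstream. Tnfaip3 encodes A20, an enzyme that edits ubiquitin chains on signalling proteins and shuts down IkB kinase activation. It measured 11.44, 11.96 and 11.54 after rhPBEF, 10.01, 10.48 and 9.89 after VALI, 12.54, 11.98 and 11.34 after both, and 9.11, 8.95 and 9.75 in control lungs. VALI arrays stood between control and the groups given rhPBEF without overlapping either. Tnfaip3 rose 5.20-fold with rhPBEF (adjusted p = 0.00382) and 6.43-fold with both (adjusted p = 0.00128), and both calls held in all 12 fits that left out 1 array. With VALI alone it stood at 0.86 ± 0.30 (adjusted p = 0.235). A further probe set gave 1.80, 2.16 and 0.41 for rhPBEF, both and VALI against control.

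Birc3 encodes cIAP2, a ubiquitin ligase of the TNF receptor complex that also restrains the non-canonical branch. The levels were 11.99, 12.50 and 11.97 with rhPBEF, 10.87, 10.47 and 10.93 with VALI, 12.77, 12.36 and 11.76 with both, and 10.33, 10.46 and 10.71 in control. VALI overlapped control, and the groups given rhPBEF lay above both. The gene rose 3.15-fold with rhPBEF (adjusted p = 0.00867) and 3.47-fold with both (adjusted p = 0.00402), against a VALI difference of 0.26 ± 0.24.

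Tnfaip2, a TNF-induced gene whose protein takes part in forming membrane nanotubes, had the largest differences of the set in the comparisons with control for rhPBEF and for both. It read 11.52, 11.63 and 11.67 with rhPBEF, 9.99, 9.43 and 9.65 with VALI, 12.12, 11.81 and 11.09 with both, and 9.03, 8.88 and 8.56 in control. All VALI arrays were above control and below every array given rhPBEF. The increase was 6.90-fold with rhPBEF (adjusted p = 0.000233) and 7.20-fold with both (adjusted p = 0.000244), and it stood in all 12 fits that left out 1 array. Another probe set gave 2.45 and 2.38, while the remaining one, with a mean of 5.69, failed the filter and moved by 0.10 and 0.06. For VALI against control the main probe set gave 0.87 ± 0.23 and the other one past the filter 0.57 ± 0.30.

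**Figure D2:**
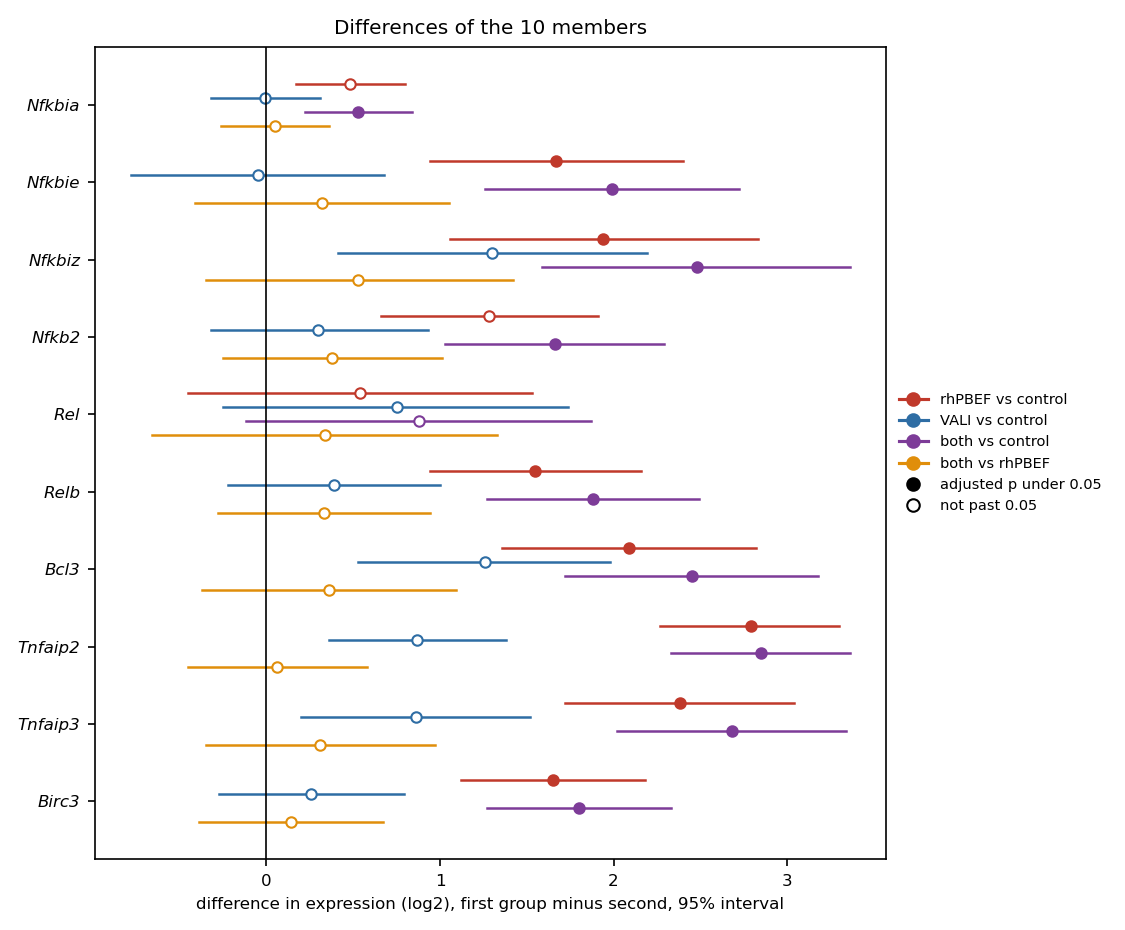
Differences in expression (log2, first group minus second) of the 10 genes with 95% intervals from limma, for rhPBEF, VALI and both against control and for both against rhPBEF; filled points passed an adjusted p of 0.05. The points for rhPBEF and for both lie right of 0 for all 10 genes, and the VALI points lie nearer 0 than the rhPBEF points for 9 of them, Rel being the exception.

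Ventilation alone raised none of the 10 genes past the threshold in limma, where 0.00774% of all genes tested passed. At an unadjusted p under 0.05 Nfkbiz, Bcl3, Tnfaip2 and Tnfaip3 were higher, which is 4 of 10 against 5.56% of all genes higher and 15.5% in either direction. With array quality weights 3 passed, namely Bcl3, Tnfaip2 and Tnfaip3, a setting under which 3.82% of all genes passed and 1.87% passed as higher. The median difference was 0.57 for the 10 genes and -0.04 for all genes. Without VALI replicate 1, 2 or 3 the median of the 10 genes was 0.60, 0.34 or 0.68, and with array quality weights it was 0.36. In 6 of the 10 the VALI arrays did not overlap control, against 9.1% of all genes. The exceptions were Nfkbia, Nfkbie, Birc3 and Rel.

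In lungs given both treatments 9 of the 10 genes rose over control, all but Rel, against 8.79% of all genes passing and 3.93% passing as higher. The median difference was 1.93 for the set and -0.06 for all genes. All 10 had combined arrays above every control array, against 12.5% of all genes. The count was 7 to 9 when each array was left out in turn, where 1.18% to 19.3% of all genes passed. Nfkbie, Nfkbiz, Relb, Bcl3, Tnfaip2, Tnfaip3 and Birc3 passed in every one of those fits.

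Adding rhPBEF to ventilation was tested by setting the combined group against VALI. Nfkbie, Tnfaip2, Tnfaip3 and Birc3 rose, 4 of the 10 against 0.325% of all genes and 0.31% as higher. Nfkbie was 4.10-fold higher in the combined group (adjusted p = 0.0291), Tnfaip2 3.94-fold (adjusted p = 0.00412), Tnfaip3 3.55-fold (adjusted p = 0.0292) and Birc3 2.91-fold (adjusted p = 0.0229). Relb stood at 1.49 ± 0.28 (adjusted p = 0.0535) and Nfkb2 at 1.36 ± 0.29 (adjusted p = 0.089). Combined and VALI arrays overlapped for Nfkbiz and Rel and stood apart for the other 8, against 4.05% of all genes. The median difference was 1.42, against -0.02 over all genes. The count was 2 or 1 without control replicate 1 or 2, and 1 or 2 without VALI replicate 1 or 2. It was 2 without rhPBEF replicate 1, 1 without combined replicate 1 or 2, and 7 without combined replicate 3. Of all genes 0.217% or 0.201% passed without control replicate 1 or 2, and 0.124% or 0.178% without VALI replicate 1 or 2. The share was 0.217% without rhPBEF replicate 1, 0.132% or 0.101% without combined replicate 1 or 2, and 3.14% without combined replicate 3. With the arrays of these groups alone 0 of the 10 passed, where 0.0232% of all genes did. Tnfaip2 passed in all 12 fits that left out 1 array.

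Adding ventilation to rhPBEF was tested by setting the combined group against rhPBEF, and here none of the 10 passed, where 0.00774% of all genes did, and none reached an unadjusted p under 0.05, where 3.77% did. All 10 differences were positive, where 51.8% of all genes were. They ran from 0.05 for Nfkbia to 0.53 for Nfkbiz, with a median of 0.33 against 0.00 for all genes. Both the count and the median moved with the combined arrays. Without combined replicate 1, 7 differences were positive, the median was 0.02, and Rel, Tnfaip2 and Birc3 stood at -0.04, -0.16 and -0.10. Without combined replicate 2, 9 were positive and the median was 0.27. Without combined replicate 3, all 10 were positive and the median was 0.65. The 95% intervals reach from -0.45 to 0.58 for Tnfaip2 and from -0.35 to 1.42 for Nfkbiz, and the upper limit is above 1, a 2-fold difference, for Nfkbiz, Rel (1.33), Bcl3 (1.09), Nfkbie (1.05) and Nfkb2 (1.01). Combined and rhPBEF arrays did not overlap for Nfkbiz alone, 1 of 10 against 5.12% of all genes.

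Between the single treatments, Nfkbie, Tnfaip2 and Birc3 were higher with rhPBEF than with VALI, 3 of 10 against 0.689% of all genes and 0.441% as higher. The sizes were 3.28-fold for Nfkbie (adjusted p = 0.046), 3.77-fold for Tnfaip2 (adjusted p = 0.00448) and 2.64-fold for Birc3 (adjusted p = 0.0264). Tnfaip3 stood at 1.52 ± 0.30 (adjusted p = 0.051). For Rel the sign was the other way, at -0.21 ± 0.45, and it turned to 0.39 without VALI replicate 2. The arrays of the single treatments overlapped for Nfkbiz and Rel and stood apart for the other 8, against 5.61% of all genes. The median difference was 1.07, against -0.02 over all genes. The count was 1 without control replicate 2, VALI replicate 1, any of the rhPBEF arrays or combined replicate 2, and 6 without combined replicate 3. Of all genes 0.325% to 0.488% passed in those fits with a count of 1, and 1.32% in the fit with 6. The count was also 1 with the replicate number as a block, where 0.766% of all genes passed. It was 0 when the pair of arrays rich in skeletal muscle transcripts was dropped, where 0.341% of all genes passed.

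The interaction asked whether the log2 difference for both treatments differed from the sum of the single log2 differences. On this scale a sum stands for fold changes that multiply. None of the 10 passed, and 0% of all genes did. At an unadjusted p under 0.05 there was 1 gene, Tnfaip2, at -0.81 ± 0.33, where 2.23% of all genes reached that level. The other Tnfaip2 probe set past the filter gave -0.65 ± 0.42. For Bcl3 the interaction was -0.90 ± 0.47 and for Nfkbiz -0.77 ± 0.57. The order of the group means was combined, rhPBEF, VALI, control for 7 of the genes. In Nfkbia and Nfkbie control stood above VALI, and in Rel VALI stood above rhPBEF. Among the 7 genes with the first order, its neighbours the combined and rhPBEF groups passed a test for none, rhPBEF and VALI for Tnfaip2 and Birc3, and VALI and control for none.

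In the combined group replicate 1 was the highest array and replicate 3 the lowest for all 10 genes, and in the rhPBEF group replicate 2 was highest for 8. VALI and control arrays had no such order, with the highest VALI array being replicate 1, 2 or 3 for 3, 5 and 2 genes and the highest control array for 4, 2 and 4. These orders were not counted over all genes, so they are not shown to be particular to the set. The mean of the 10 genes stood above the control mean by 1.61, 1.82 and 1.48 in the rhPBEF arrays, 0.51, 0.83 and 0.43 in the VALI arrays and 2.43, 2.0 and 1.33 in the combined arrays, against -0.02, -0.05 and 0.07 in the control arrays. The neutrophil markers stood in the same order among the combined arrays, at 3.03, 2.05 and 1.57. Their means were 2.36, 2.23 and 0.62 in VALI replicates 1, 2 and 3, and 2.17, 1.92 and 1.84 in the rhPBEF arrays. Of the 14 markers 5 rose with rhPBEF, 0 with VALI and 9 with both, where 0.936%, 0% and 3.93% of all genes rose. S100a8 averaged 13.46, 13.04 and 13.42 with rhPBEF, VALI and both, against 10.41 in control, while the primary granule gene Elane averaged 6.36, 6.55 and 6.42, against 6.61. The part of neutrophil RNA in the levels of the 10 genes was not tested. Across the 45 pairs of the 10 genes Pearson's r over the 12 arrays had a median of 0.892 and ran from 0.0174 for Nfkbia and Rel to 0.983. Against the mean of the other 9, Relb and Tnfaip3 followed most closely (0.987 and 0.986), and Nfkbiz (0.857), Nfkbia (0.75) and Rel (0.495) least.

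**Figure D3:**
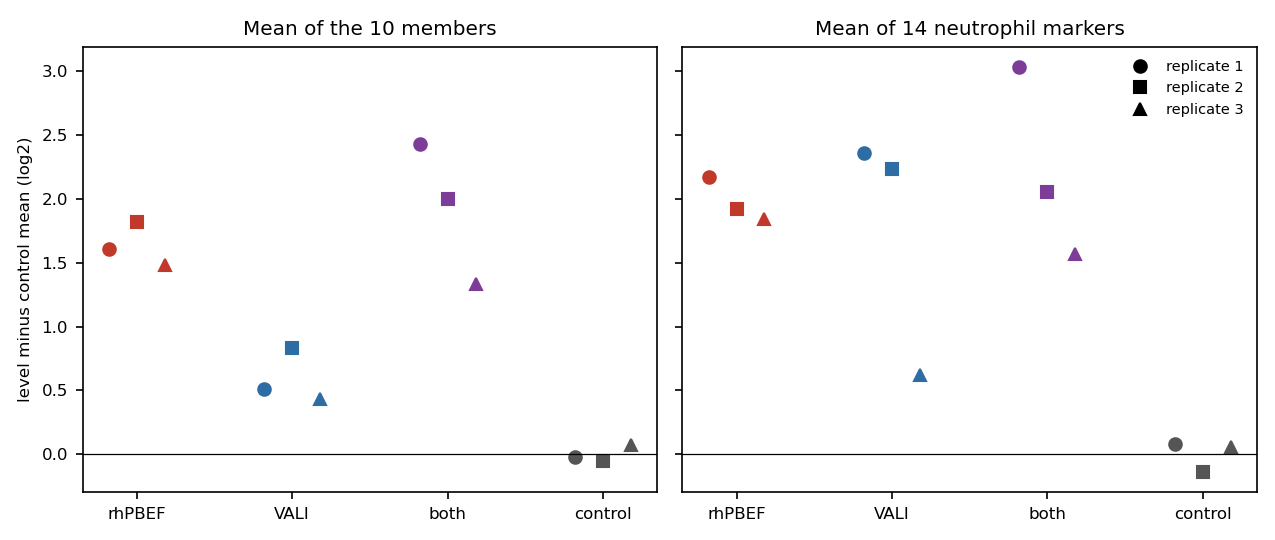
Mean of the 10 genes (left) and of 14 neutrophil marker genes (right) in each array, as the log2 level minus the control mean, with groups from left to right as rhPBEF, VALI, both and control. VALI replicates 1, 2 and 3 stand at 2.36, 2.23 and 0.62 on the right and at 0.51, 0.83 and 0.43 on the left. The rhPBEF replicates stand at 2.17, 1.92 and 1.84 on the right and at 1.61, 1.82 and 1.48 on the left.

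Around these 10 genes the pathway was followed through 60 other genes in 4 lists, of which 52 were tested; Nfkb1, Chuk, Ripk1, Ripk2, Traf3, Tnip3, Sele and Nos2 were not. In rhPBEF lungs 6 of the 52 rose over control and none fell, where 0.936% of all genes rose and 0.286% fell, with a median of 0.20. In lungs given both 16 rose and 2 fell, where 3.93% of all genes rose and 4.86% fell, with a median of 0.28, and with VALI alone 0 passed, with a median of 0.10 and 7 at an unadjusted p under 0.05, a share near the 15.5% of all genes at that level. These shares of all genes are the background of each of the 4 lists too. For rhPBEF the count was 2 without any of the control arrays and 3 or 2 without rhPBEF replicate 1 or 2. It was 12 without combined replicate 3. In those fits 0.341% to 0.426%, 0.433% or 0.395%, and 2.77% of all genes passed. For both the count was 6, 6 or 8 without control replicate 1, 2 or 3 and 4 without combined replicate 1 or 2. In those fits 1.46%, 1.49% or 2.04%, and 1.18% or 1.32% of all genes passed.

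Of the other subunits and IkB genes, 4 were tested and 0 rose with rhPBEF, 0 with VALI and 2 with both. Rela, the main transactivating subunit, read 12.42, 12.03 and 11.86 with both treatments, against 11.57, 11.51 and 11.53 in control (0.57 ± 0.13, adjusted p = 0.0261). Nfkbib, which encodes IkBβ, read 10.48, 10.24 and 9.65, against 9.31, 9.37 and 9.42 in control (0.76 ± 0.17, adjusted p = 0.0277). In both genes the combined arrays lay above every control array, at sizes under 2-fold. Nfkbid, another nuclear IkB gene, stood at 0.78 ± 0.47 with rhPBEF and 1.04 ± 0.47 with VALI, and Nfkbib at 0.58 ± 0.17 with rhPBEF and Rela at 0.24 ± 0.13 with VALI, none of which passed.

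Among the 15 tested IkB kinases and upstream kinases or adaptors, 1 rose with rhPBEF and 3 with both. Tbk1, an IkB kinase relative of the interferon pathway, rose 1.48-fold with rhPBEF (adjusted p = 0.0353) and 1.55-fold with both (adjusted p = 0.0104). Map3k8, which encodes the MAP kinase kinase kinase TPL2, rose 2.97-fold with both (adjusted p = 0.0151), and Birc2, which encodes cIAP1, 2.03-fold (adjusted p = 0.0227). With VALI alone Map3k8 stood at 0.63 ± 0.30 and Traf5 at -0.30 ± 0.15, and neither passed. The median of this list was 0.08, 0.04 and 0.12 for rhPBEF, VALI and both against control.

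Of 18 tested ubiquitin editors and other regulators, 1 rose with rhPBEF, and 4 rose and 2 fell with both. Zc3h12a encodes regnase-1, an RNase that destroys inflammatory transcripts, and it passed for rhPBEF and both against control and against VALI. Its levels were 9.07, 9.50 and 9.11 with rhPBEF, 7.69, 8.01 and 7.81 with VALI, 9.91, 9.39 and 9.15 with both, and 7.24, 7.39 and 7.63 in control. Every VALI array was above control and below every array given rhPBEF. The rise over control was 3.50-fold with rhPBEF (adjusted p = 0.00114) and 4.17-fold with both (adjusted p = 0.00043). With both, Tnip1, encoding an A20-binding protein, rose 3.34-fold (adjusted p = 0.0339), the TBK1 adaptor gene Tank 1.61-fold (adjusted p = 0.0229) and the deubiquitinase gene Cyld 1.22-fold (adjusted p = 0.0488). Pdlim2, whose protein directs nuclear Rela to degradation, fell by 0.69 on the log2 scale (adjusted p = 0.012), and Otud7b, which encodes the deubiquitinase Cezanne, fell by 0.46 (adjusted p = 0.02). With VALI alone Zc3h12a stood at 0.42 ± 0.19 and Pdlim2 at -0.40 ± 0.12, short of the threshold.

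Of 15 other target genes tested, 4 rose with rhPBEF and 7 with both, and the medians were 0.80, 0.34 and 0.98 for rhPBEF, VALI and both. Among these 15, Mmp9 is also in the neutrophil marker list. The chemokine gene Cxcl10 rose 13.9-fold with rhPBEF (adjusted p = 0.0285) and 14.9-fold with both (adjusted p = 0.0138). Its rhPBEF arrays read 11.12, 11.63 and 9.15 and its combined arrays 11.71, 11.39 and 9.08, against 7.04, 6.68 and 6.77 in control, so replicate 3 was the low array in both groups given rhPBEF. Cd83, a surface marker of activated dendritic cells, rose 7.27-fold and 8.37-fold (adjusted p = 0.00962 and 0.00499). Sod2, the mitochondrial superoxide dismutase gene, rose 2.52-fold and 2.70-fold, and the adhesion molecule gene Icam1 2.34-fold and 2.36-fold. With both treatments Ccl2, a monocyte chemokine gene, rose 5.72-fold (adjusted p = 0.0253) and Csf1, the macrophage growth factor gene, 2.89-fold (adjusted p = 0.0387). Ccl2's control mean of 6.12 is below the filter level. With VALI alone Ptgs2, encoding cyclooxygenase-2, stood at 0.91 ± 0.48 and Traf1 at -0.88 ± 0.16 (adjusted p = 0.0909). For both against VALI, and likewise for rhPBEF against VALI, 2 of the 52 rose, Sod2 and Zc3h12a, and for both against rhPBEF 0 passed, with 2 at an unadjusted p under 0.05, where 3.77% of all genes lay.

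**Figure D4:**
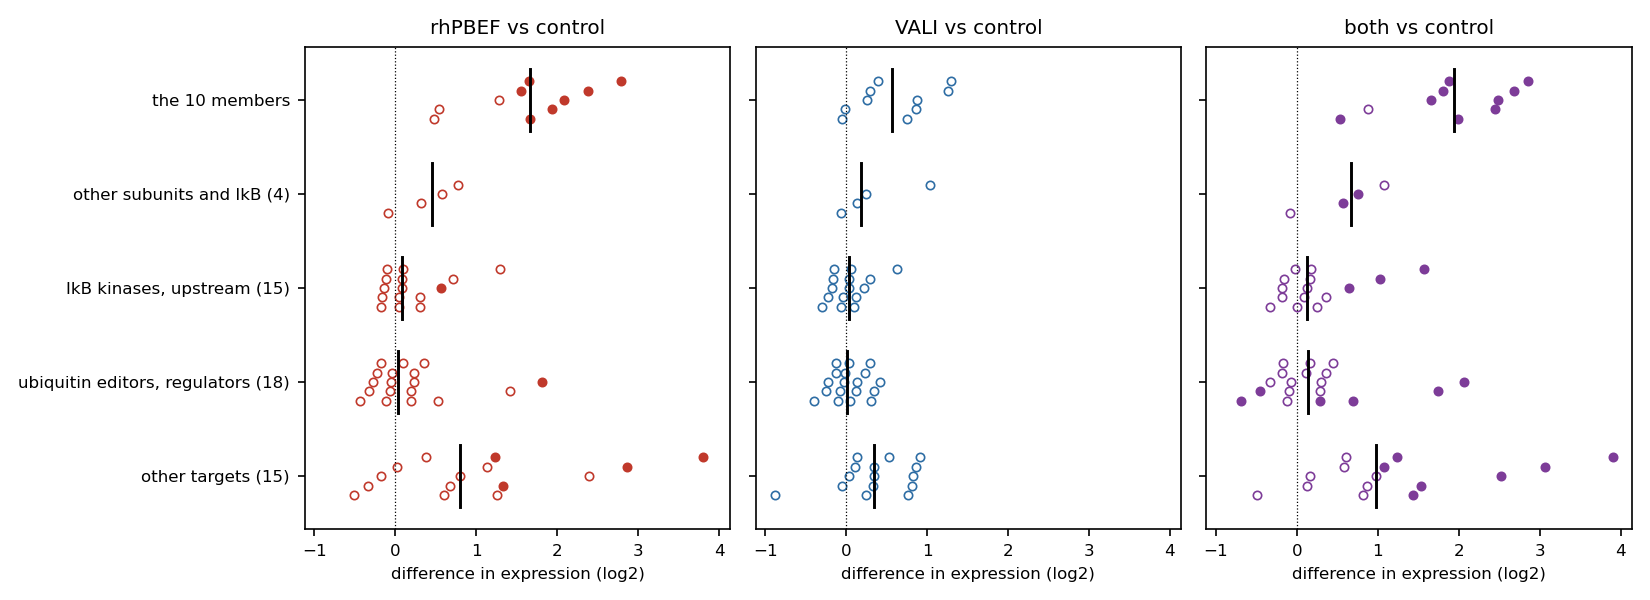
Differences in expression (log2) against control for rhPBEF, VALI and both, with a point per gene for the 10 genes and for the 4 lists around them; filled points passed an adjusted p of 0.05 and bars mark medians. The bar of the 10 genes lies at 1.66, 0.57 and 1.93, and those of the kinases and of the regulators lie within 0.13 of 0 in all 3 panels.

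Outside the 10, the genes whose pattern over the 12 arrays was most like their mean scaled profile were Ctps (Pearson r = 0.983), Zc3h12a (0.982), Icam1 (0.982), Rnf149 (0.980), Ptpn2 (0.979), Plek (0.979), Plscr1 (0.976), Osmr (0.974), Jak2 (0.971) and Steap4 (0.971). These were the 10 highest of all genes tested and are given as a description without a test. Their differences from control ran from 0.55 for Jak2 to 3.73 for Steap4 with rhPBEF, from 0.18 for Jak2 to 0.87 for Steap4 with VALI, and from 0.74 for Jak2 to 3.74 for Steap4 with both.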

How the data were processed

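Lung RNA was measured on 12 Affymetrix arrays, and the deposited table holds log2 expression values, 1 per probe set and array, normalised by the authors before deposit. The tools MAS5 and GCRMA are listed, per the submitters' processing notes, with no role or version, and the background correction and scaling are not stated in the labels. No detection calls were used, and the number of arrays limits the precision.

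Groups came from the sample titles. The treatment protocols divide the samples the same way, writing VILI for VALI, while the description field calls all 12 samples control animals. Of 45101 probe sets 64 controls were left out, and probe sets whose mean was above the 40th percentile (6.42) were kept. Genes with 1 symbol were represented by the probe set with the highest mean. Group means were fitted with limma 3.58.1 in R 4.3.3 over 12921 genes (lmFit and eBayes, all 12 arrays, Benjamini-Hochberg within each comparison, threshold 0.05). The fit was also run on simulated data with independent noise, for rhPBEF against control alone. That simulation held no correlated genes and no outlying arrays, so it does not bear on the shifts between fits. Alternatives changed the filter, scaling, prior variance, array weights, probe sets, replicate block and arrays used. No block was used in the main fit, although some same-numbered arrays deviated together (correlations of -0.21 to 0.53).

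The 10 genes, the pathway lists and the marker lists were chosen with earlier results of these data known. Of each pathway list, genes past the threshold were named (at most 6, largest first), otherwise the 2 largest changes. Promoter sequences are RefSeq's, build GRCm38.p6. Plots used matplotlib 3.10.9 under Python 3.11.15.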

Additional observations from a re-analysis of the deposited data

How the results depend on the processing

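The differences of the 10 genes were recomputed under 1530 combinations of gene, comparison and setting. Of these, 1365 kept their direction and their side of the threshold, 100 lost the call, 32 gained it and 33 turned sign, none of the last past the threshold. The 1365 include 209 for VALI against control, 215 for both against rhPBEF and 196 for the interaction, where no call could be lost. The lost calls were 34 for rhPBEF and 12 for both against control, 30 for both against VALI and 24 for rhPBEF against VALI. Leaving out each array in turn gave 2 to 8 of the 10 genes for rhPBEF against control, 0 for VALI, 7 to 9 for both against control, 1 to 7 for both against VALI, 0 for both against rhPBEF, 1 to 6 for rhPBEF against VALI and 0 for the interaction. For rhPBEF against control, Birc3 passed in 11 of those 12 fits, Bcl3 in 8, Relb in 7, Nfkbiz in 5, Nfkbie in 4, Nfkb2 in 2, Nfkbia in 1 and Rel in 0. The pathway lists gave 2 to 12, 0, 4 to 23, 1 to 11, 0, 1 to 6 and 0 genes for the same comparisons. Among all genes the shares passing were 0.341% to 2.77% for rhPBEF, 0% to 0.333% for VALI and 1.18% to 19.3% for both, each against control. They were 0.101% to 3.14% for both against VALI, 0% to 0.0232% for both against rhPBEF and 0.325% to 1.32% for rhPBEF against VALI. For the interaction the share was 0% to 0.031%. With array quality weights, 3 of the 10 genes passed for VALI against control, 9 for both against VALI and 5 for rhPBEF against VALI, and the pathway lists gave 22 for rhPBEF, 1 for VALI, 36 for both, 21 for both against VALI and 5 for rhPBEF against VALI. Under the same weights 13.4%, 3.82%, 49.5%, 8.17% and 1.32% of all genes passed in those 5 comparisons. With the arrays of the compared groups alone, 0 of the 10 genes and 0 pathway genes passed for both against VALI, where 0.0232% of all genes did. In the same setting 16 pathway genes passed for rhPBEF against control, where 4.92% of all genes did. When the pair of arrays rich in skeletal muscle transcripts was dropped, which was chosen after seeing the data, 2 of the 10 genes and 2 pathway genes passed for rhPBEF against control, 2 and 1 for both against VALI, and 0 and 0 for rhPBEF against VALI. Without that pair 0.534%, 0.286% and 0.341% of all genes passed in those comparisons. With the mean of a gene's probe sets, 0 pathway genes passed for both against VALI and 0 for rhPBEF against VALI. Of all genes 0.302% and 0.658% passed there. The cause of these shifts was not tested.

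The replicate numbers were not used as pairs in the main fit. Of 18 same-numbered pairs, whose deviations correlated at -0.21 to 0.53, 7 were above 0.1. The highest were rhPBEF with combined replicate 3 (0.53), VALI with combined replicate 3 (0.36) and rhPBEF with combined replicate 1 (0.34). Whether same-numbered samples shared handling was not tested. With the replicate number as a block, 7 of the 10 genes passed for rhPBEF against control, 9 for both against control, 3 for both against VALI and 1 for rhPBEF against VALI. Under the block 1.44%, 9.77%, 0.379% and 0.766% of all genes passed in those comparisons.

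Signs turned in small differences. For VALI against control Nfkbia was 0.01 with arrays centred on their median, 0.21 with array weights, 0.02 with probe sets averaged, and -0.09 to 0.15 with each array left out, and Nfkbie was 0.03 with array weights and -0.22 to 0.12 with each array left out. Rel for both against VALI was -0.22 without the muscle-rich arrays and -0.25 to 0.73 with each array left out, and for rhPBEF against VALI it was 0.23 with array weights and -0.55 to 0.39 with each array left out. For both against rhPBEF, leaving out each array gave -0.04 to 0.66 for Rel, -0.16 to 0.35 for Tnfaip2 and -0.10 to 0.41 for Birc3, and Tnfaip2 was 0.00 with probe sets averaged. The interaction was -0.15 for Nfkbia and 0.23 for Relb with array weights and 0.15 for Birc3 without the muscle-rich arrays. With each array left out it was -0.11 to 0.14 for Nfkbia, -0.24 to 0.48 for Nfkb2, -0.79 to 0.19 for Rel, -0.35 to 0.30 for Relb and -0.35 to 0.16 for Birc3.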

Other observations

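VALI replicate 2 stood apart from the other VALI arrays for some of the genes and not for others, and the genes in this paragraph were chosen after their values were seen. Among the 10, it was the highest VALI array for Nfkbiz, Rel, Relb, Bcl3 and Tnfaip3 and the lowest for Nfkbia, Nfkbie, Tnfaip2 and Birc3. Nfkbid, a nuclear IkB gene like Nfkbiz, read 9.37 in that array, against 7.49 and 7.31 in the other VALI arrays and 6.95 to 7.07 in control. Ptgs2 read 12.78 there, the highest of all 12 arrays, against 11.44 and 10.48 in the other VALI arrays and 10.33 to 10.90 in control. Cflar, which encodes an inhibitor of caspase-8, read 12.08, against 11.32 and 11.11 in the other VALI arrays and 10.92 to 11.30 in control. The difference between this array and the other VALI arrays was not tested.

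Traf1, an NF-kB target that encodes an adaptor of TNF receptors, read in the direction opposite to most of its list. Its levels were 7.79, 7.72 and 8.09 with rhPBEF, 7.61, 7.31 and 7.57 with VALI, and 8.06, 7.83 and 7.75 with both, against 8.39, 8.65 and 8.09 in control. It passed in none of the comparisons.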
